A study of Mus musculus with 186 samples.

Results

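Luminal cells of the adult mouse mammary gland were compared by whether they held transcripts of Cd55. Of 90 cells sorted as luminal, 76 had at least 100000 reads and 1500 genes after mitochondrial and ribosomal protein genes were removed. Among these 76, 32 cells had Cd55 at 10 CPM or more (counts per 1000000 remaining reads) and are called Cd55+. Another 34 cells had 0 Cd55 reads and are called Cd55-, and the other 10, with 1 to 6 Cd55 reads, entered neither group. The 66 compared cells belong to a series of 186 single cells, 96 of them sorted as basal.

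All cells came from untreated adult female mice (10 weeks) of the inbred strain FVB/NJ, and were sorted as lineage-negative CD29loCD24+ cells. Each was captured in a site of the Fluidigm C1, a microfluidic chip, where its RNA was turned into full-length cDNA. The cDNA was amplified on the same chip. Luminal cells are labelled with 2 PCR plates, B and C. Plate B gave 9 Cd55+ and 10 Cd55- cells, and plate C gave 23 and 24. No mouse is named for any cell, so the cells of a group are not replicates of it: each group is 1 sample, nothing was tested, and no difference below has a replicate check. Intervals are 95%. Those of CPM values cover the counting of reads only, and PCR reads without molecular identifiers are not independent molecules, so they are too narrow for molecules. Those of shares treat the cells as independent draws, which cannot be checked without the mouse of each cell. Values on plate B and plate C stand beside most pooled values, because no cell is on both plates.

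CD55, or decay-accelerating factor, is a lipid-anchored surface protein that speeds the breakdown of the complement convertases and so shields cells from their host's complement. Luminal cells of the mammary duct are usually split into luminal progenitors (LP), which are Kit-rich and hormone receptor-poor and give rise to milk-secreting cells, and mature luminal (ML) cells, many of which carry the oestrogen, progesterone and prolactin receptors. The duct is wrapped by fibroblasts, which also can make CD55. The question put to these cells was which other transcripts go with Cd55 within the luminal sort.

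The groups were chosen by the Cd55 counts themselves, so the Cd55 levels are a description only. In Cd55+ cells Cd55 ran from 10.5 to 562 CPM with a median of 193 CPM (12 to 1042 reads). The lowest positive cells stood at 10.5, 17.1 and 22.7 CPM, and the highest cells under the threshold at 4.29, 3.76 and 3.10 CPM.

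Mouse Cd55 (Entrez 13136) has a neighbour, Cd55b (Entrez 13137), a paralogue on the same strand of chromosome 1. Both promoter windows of the RefSeq annotation of GRCm38.p6 are shown because Cd55 sets the groups and its neighbour had reads in Cd55+ cells and in no Cd55- cell. Each runs from 250 bases before to 50 after the annotated start, 5′ to 3′ on the minus strand, at chr1:130462695-130462994 for Cd55 and chr1:130422994-130423293 for Cd55b. Capitals mark matches of the SP1 box, GGGCGG, on either strand.
Cd55: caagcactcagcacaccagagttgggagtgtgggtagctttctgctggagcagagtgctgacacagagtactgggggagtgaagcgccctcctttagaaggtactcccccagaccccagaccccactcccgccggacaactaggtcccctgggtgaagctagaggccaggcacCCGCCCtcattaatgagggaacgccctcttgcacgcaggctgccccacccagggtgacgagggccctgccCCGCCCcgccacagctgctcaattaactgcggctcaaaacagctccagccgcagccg
Cd55b: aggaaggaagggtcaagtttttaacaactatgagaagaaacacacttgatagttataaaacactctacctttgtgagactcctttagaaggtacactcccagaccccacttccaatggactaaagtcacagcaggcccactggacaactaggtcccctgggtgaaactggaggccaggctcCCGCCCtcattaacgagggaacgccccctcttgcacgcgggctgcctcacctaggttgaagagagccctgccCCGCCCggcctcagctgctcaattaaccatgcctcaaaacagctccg
In a global alignment the windows shared 217 of 322 columns (67.4%). Each held 2 SP1 boxes, a motif present in 35.7% of the 32851 promoter windows of the same length. The AP-1 site TGANTCA (7.81% of windows) and the cAMP response element TGACGTCA (1.79%), each searched on both strands, had no match in either window. The TATA box TATAAA (13.6%) matched once in Cd55b and not in Cd55. That match lies in the upstream part of the Cd55b window, far from the annotated start.

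Cd55b had 289 reads in 21 of 32 Cd55+ cells, with at most 44 in a cell, against 11452 reads of Cd55. It had 0 reads in the 10 cells between the groups and in the 34 Cd55- cells. Its summed level was 5.51 CPM (Poisson interval 4.89 to 6.18) in Cd55+ cells, at least 87.3-fold higher than the limit of 0.0631 CPM that 0 reads over the Cd55- group allow. There were 2.52 Cd55b reads for every 100 Cd55 reads in Cd55+ cells. Of all stretches of 75 bases in annotated Cd55b transcripts, 16.0% also occur in Cd55 transcripts, so reads of Cd55 may have been counted for Cd55b. The part of shared reads in this result was not tested.

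Library depth and marker content differed among the compared cells. Cd55+ cells had 976109 to 3226961 reads after gene removal (median 1574031) and Cd55- cells 105636 to 2674220 (median 1350572). With every cell thinned to 100000 reads, 1957 to 6142 genes were detected in Cd55+ cells (median 4046.5) and 743 to 6107 in Cd55- cells (median 3630.5). The Cd55- luminal cells 9, 13, 43, 74, 81, 84 and 89 held 743 to 1945 genes, fewer than any Cd55+ cell. The median gene was detected in 21.9% of Cd55+ and 17.6% of Cd55- cells. A higher detection in Cd55+ cells is thus the background of every share below. Mitochondrial genes took 2.14% to 16.9% of reads (median 6.70%) in Cd55+ and 0.197% to 75.5% (median 8.73%) in Cd55- cells. The epithelial label held in most libraries: Krt18, a luminal keratin, was detected in all 66 cells, Krt8 in 31 of 32 Cd55+ and 33 of 34 Cd55- cells, and the adhesion molecule Epcam in 31 of 32 and 34 of 34. None of the 17 immune markers passed the gene filter.

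Among the Cd55+ libraries 6, luminal cells 24 (plate B), 33, 39, 54, 55 and 61 (plate C), stood apart by fibroblast transcripts. At 100000 reads each held 9 to 13 of 14 fibroblast markers, while the other 26 Cd55+ cells held 0 to 3, the 34 Cd55- cells 0 to 4 and the 10 cells between 0 to 3. The 6 wells make up 18.8% of Cd55+ cells (exact binomial interval 7.21% to 36.4%) against 0 of 34 Cd55- cells (up to 10.3%). Their Cd55 level ran from 75.9 to 562 CPM with a median of 425 CPM, and that of the other 26 from 10.5 to 437 CPM with a median of 169 CPM. Luminal cell 54 was low in epithelial transcripts, with 1.12 CPM of Krt8, 0.562 CPM of Epcam and 148 CPM of Krt18 beside 7362 CPM of the collagen gene Col3a1. In the other 5 wells Krt8 stood at 951 to 1588 CPM and Epcam at 277 to 2272 CPM beside 461 to 3121 CPM of Col3a1, so transcripts of both kinds were present in 1 library.

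Another 4 libraries, all Cd55-, carried markers of other cell types. Luminal cells 25, 27 and 71 held 9 to 13 of 14 endothelial markers, and luminal cell 63 held 13 of 18 basal markers with 4372 CPM of Acta2, the smooth muscle actin of basal cells. Among Cd55+ cells only luminal cell 55, counted above, held 13 endothelial markers. The study inspected capture sites for 1 cell each, and no doublet caller was run on these few cells. Results that rest on these 10 wells are also given without them, a choice made after the data were seen that leaves 26 Cd55+ and 30 Cd55- cells (8 and 10 on plate B, 18 and 20 on plate C).

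**Figure D1:**
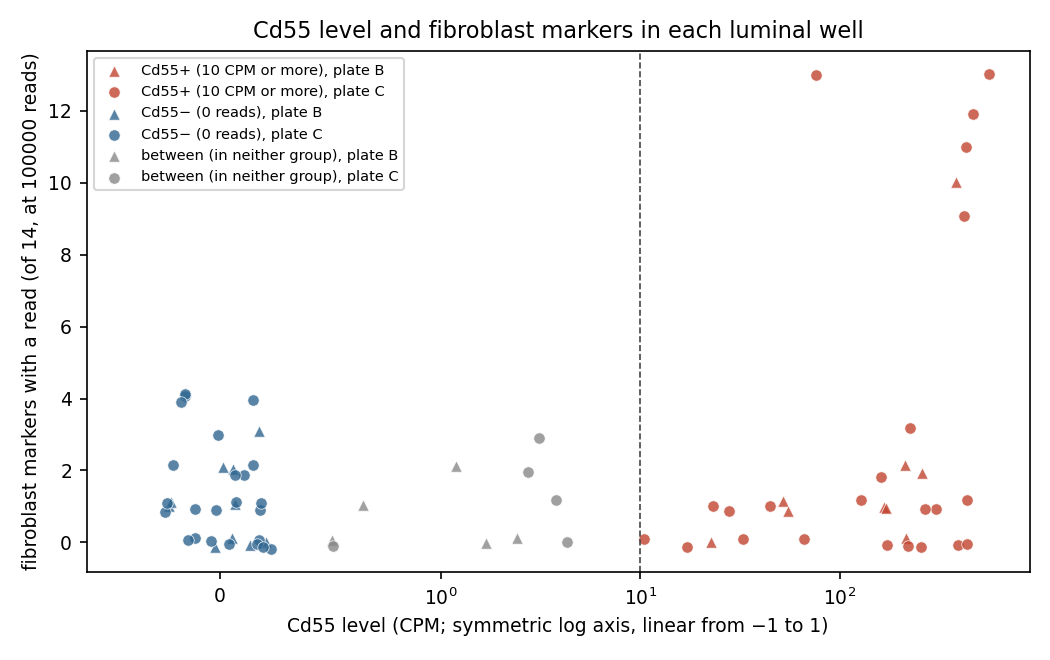
Each point is 1 of 76 luminal cells, with its Cd55 level in CPM on a symmetric log axis (points at 0 are spread sideways, and all points slightly up and down, for legibility) and the number of 14 fibroblast markers with a read at 100000 reads; colours give the Cd55 group, shapes the plate, and the dashed line the threshold of 10 CPM. The 6 wells with 9 to 13 markers all lie to the right of the threshold, and no other cell reaches 5.

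Counts per gene were summed over the cells of each group, and the log2 ratio of Cd55+ over Cd55- was taken on CPM with 1 CPM added. Of 12664 genes with at least 1 CPM in 3 cells, 1221 (9.64%) were at least 2-fold higher in Cd55+ cells overall and on each plate alone, and 616 (4.86%) were at least 2-fold lower. Without the 10 wells the counts were 1226 (9.68%) and 666 (5.26%), of which 902 and 482 genes were shared with the first counts. The median log2 ratio of all genes was 0.12, and 0.15 without the wells.

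Ratios on plate B said little about those on plate C. Across 12664 genes, which are not independent replicates, Pearson's r between the plates was 0.05 and Spearman's rank correlation 0.03. For the 7750 genes at 20 CPM or more in a group they were 0.10 and 0.08. Of 3697 genes at least 2-fold higher on plate B, 33.1% were so again on plate C, where 28.0% of all genes were, and 19.6% were at least 2-fold lower there. Of 3101 genes at least 2-fold lower on plate B, 19.9% were lower again on plate C, where 19.0% of all genes were. Genes past 2-fold on plate B thus passed again on plate C little more often than all genes did. Passing 2-fold on both plates therefore says little for a single gene. The genes below are given by their size and by how many cells carried them.

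**Figure D2:**
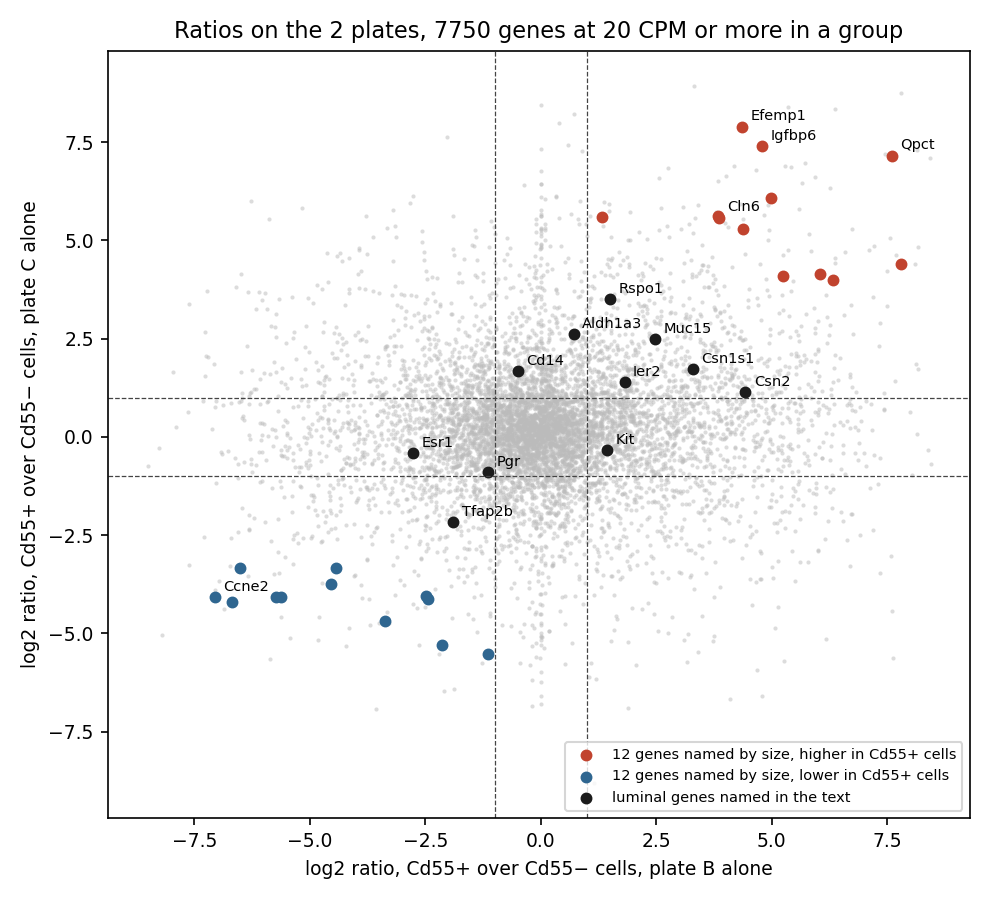
Each grey point is 1 of 7750 genes, with its log2 ratio of Cd55+ over Cd55- cells on plate B (horizontal) and on plate C (vertical); dashed lines mark 2-fold. The grey cloud has no visible slope, the 24 genes named by size lie in the outer corners by their selection, and Cd14, Kit and Esr1 lie inside 2-fold on a plate or differ in sign between plates.

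Genes of the connective tissue matrix set the highest ratios, and the 6 wells held nearly all of their reads. The 13 fibroblast markers tested had a median log2 ratio of 5.21 (plate B 4.95, plate C 5.27). Of these, 8 of 13 were at least 2-fold higher on both plates, where 9.64% of all genes were. Without the 10 wells the median was -0.08, none was higher and Col6a3, a collagen VI chain, was lower (log2 -2.44). Dpt, which encodes the matrix protein dermatopontin, had 449 CPM (443 to 455) in Cd55+ and 0.231 CPM (0.115 to 0.414) in Cd55- cells. Per cell it stood at 52.3 to 6216 CPM in the 6 wells and at no more than 1.05 CPM in the other Cd55+ cells. Mfap5, a microfibril protein, stood at 229 to 4153 CPM in the 6 wells and at no more than 2.52 CPM in the other 26. Pi16, a peptidase inhibitor known from adventitial fibroblasts, reached 1174 CPM in the wells and 0.525 CPM in the others. Pdgfra, the growth factor receptor of many fibroblasts, had 0 reads in Cd55- cells and was at least 436-fold higher in Cd55+ cells. It reached 647 CPM in the wells and 116 CPM in the other Cd55+ cells, where its summed level was 3.24 CPM without the 10 wells. Dcn, the proteoglycan decorin, did not separate the groups in this way: it had a read in 16 of 32 Cd55+ and 14 of 34 Cd55- cells. Among Cd55- cells it reached 18980.5 CPM in luminal cell 13, which had 624693 reads and only 1945 genes at 100000 reads. Luminal cell 59 (Cd55-), with 4542 genes, held 2468 CPM.

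The genes that the study listed beside Cd55 as prominent in its cell cluster III went the same way. That list was drawn from total epithelial cells of pubertal and adult glands, with Cd55 among its genes. It is not particular to Cd55: Fbn1, Fstl1 and Axl, among others, were also listed for the study's clusters IV to VII. Its 12 tested members had a median log2 ratio of 2.30, with 7 at least 2-fold higher on both plates, where 9.64% of all genes were. Without the 10 wells the median was -0.14, with 1 such gene. Fbn1, fibrillin-1, had 298 CPM in Cd55+ and 8.70 CPM in Cd55- cells, and 0.121 and 0.235 CPM without the wells. Fstl1, a secreted follistatin-like protein, had 2159 and 96.5 CPM with the wells and 0.871 and 1.17 CPM without them. Axl, a receptor tyrosine kinase, turned from a log2 ratio of 2.40 to -2.25, and without luminal cell 54 alone it was 0.97. Lrp1, an endocytic receptor, was the member still 2-fold higher on both plates without the wells, at a log2 ratio of 1.47. Aldh1a3, an aldehyde dehydrogenase of LP cells that the study also placed here, had 133 CPM and 32.1 CPM (log2 2.02, plate B 0.72, plate C 2.61), and 50.4 and 28.8 CPM without the wells.

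**Figure D3:**
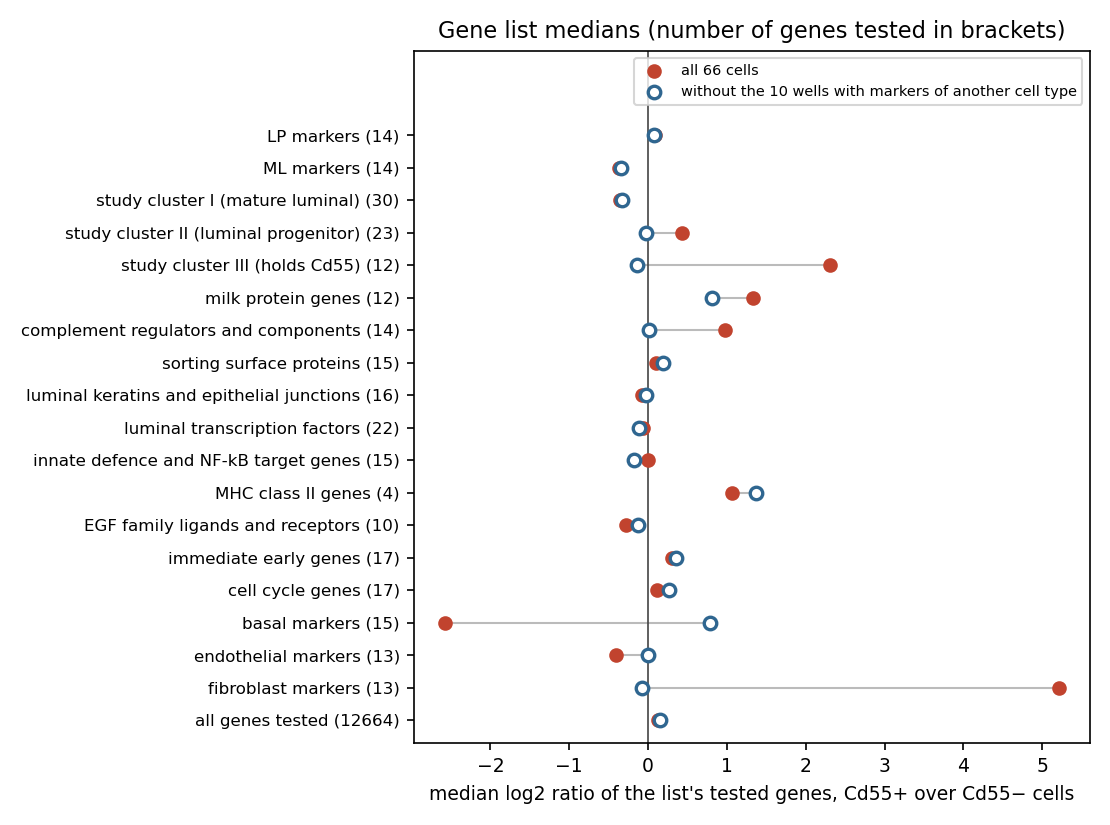
The median log2 ratio of Cd55+ over Cd55- cells is drawn for each gene list with tested members, over all 66 cells (filled) and without the 10 wells that carry markers of another cell type (open). The fibroblast list and the study's cluster III drop from 5.21 and 2.30 to just below 0, while the LP and ML lists move by less than 0.1.

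The median per-gene ratio lay near that of all genes for the LP list and below it for the ML list. Summed over the 14 LP markers, the median cell had 1670 CPM in Cd55+ and 907 CPM in Cd55- cells. Single cells ran from 1.02 to 10324 CPM and from 2.25 to 25567 CPM. Without the 10 wells the medians were 1540 and 439 CPM. Summed ML markers had medians of 9640 and 9417 CPM, or 10079 and 11152 CPM without the wells. The median Cd55+ cell held more markers of both lists. The 14 LP markers had a median log2 ratio of 0.09 (plate B 0.26, plate C 0.10) and the 14 ML markers of -0.37 (plate B -0.33, plate C -0.39). Without the 10 wells these were 0.07 and -0.34, beside 0.15 for all genes. Of the 14 LP genes 1 was 2-fold higher on both plates and none lower, and of the 14 ML genes the same. Of all genes 9.64% were higher and 4.86% lower. At 100000 reads Cd55+ cells outside the wells held 1 to 9 LP markers with a median of 5 and 1 to 14 ML markers with a median of 11. Cd55- cells outside the wells had medians of 3 and 9. At least 5 LP markers were held by 21 of 32 Cd55+ and 12 of 34 Cd55- cells, or 17 of 26 and 10 of 30 without the 10 wells. At least 5 ML markers were held by 24 and 30 cells, or 21 of 26 and 26 of 30 without the 10 wells. Markers of both kinds, 5 or more of each, were found in 14 Cd55+ and 10 Cd55- cells, or 12 and 8 without the 10 wells. The level of 5 markers was set after the data were seen. It lies near the LP medians and well below the ML medians, so it shows a gap in LP markers more readily. Cd55- cells with fewer detected genes than any Cd55+ cell are among those counted. The part of general detection in these counts was not tested.

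**Figure D4:**
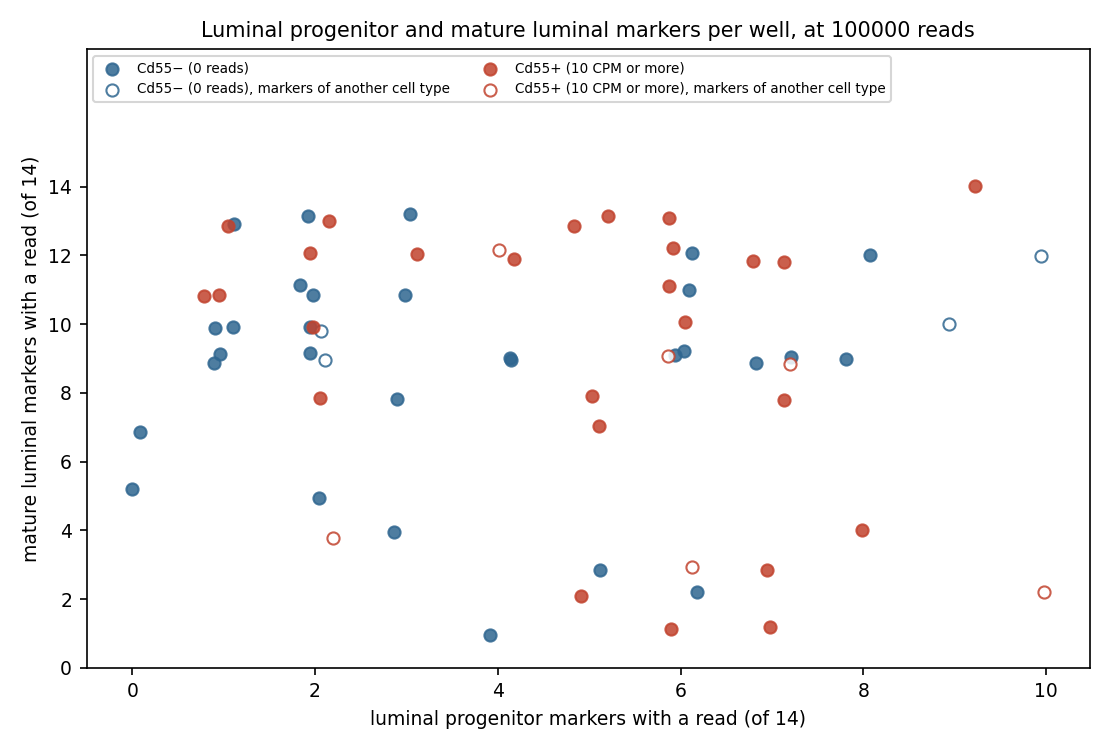
For each of the 66 compared cells the number of 14 LP markers (horizontal) and of 14 ML markers (vertical) with a read at 100000 reads is drawn, with small random shifts so that points do not hide each other; open points are the 10 wells with markers of another cell type. Red Cd55+ and blue Cd55- points overlap, with 21 of 32 red and 12 of 34 blue points at 5 or more LP markers.

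Among single markers of the LP state, Cd14 had a read about as often in each group, but 5 reads or more in a larger share of Cd55+ cells. Elf5 was detected in more Cd55+ cells. Cd14, a co-receptor for lipopolysaccharide used to sort LP cells, was detected in 53.1% of Cd55+ cells (34.7% to 70.9%) and 50.0% of Cd55- cells (32.4% to 67.6%). At 5 reads or more Cd14 was found in 46.9% of Cd55+ and 26.5% of Cd55- cells. The Cd14 level ran from 0 to 2497 CPM with a median of 7.26 CPM in Cd55+ and from 0 to 1751 CPM with a median of 5.22 CPM in Cd55- cells. The summed level was 249 CPM and 147 CPM, with a log2 ratio of 0.76 (plate B -0.49, plate C 1.68). Kit, the stem cell factor receptor, was detected in 10 of 32 and 8 of 34 cells. Its log2 ratio was -0.19 (plate B 1.44, plate C -0.34), and without luminal cell 50 it was 0.85. Elf5, a transcription factor of the alveolar lineage, was detected in 10 and 5 cells with summed levels of 31.4 and 16.5 CPM (log2 0.89, plate B 2.96, plate C 0.12). Itgb3, an integrin of LP cells, was detected in 2 and 3 cells, too few to compare. Cd14 and Kit were both detected in 7 of 32 Cd55+ cells (21.9%, 9.28% to 40.0%) and 5 of 34 Cd55- cells (14.7%, 4.95% to 31.1%).

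Esr1 and Pgr were detected in at least as large a share of Cd55+ as of Cd55- cells, at lower summed levels. Esr1, the oestrogen receptor, was detected in 21 of 32 and 21 of 34 cells, with medians of 18.5 and 20.1 CPM. Its summed level was 71.1 and 134 CPM (log2 -0.90, plate B -2.76, plate C -0.41). Pgr, the progesterone receptor, was detected in 24 and 21 cells with summed levels of 98.3 and 198 CPM (log2 -1.14 on plate B and -0.89 on plate C). Both receptors were detected in 19 of 32 Cd55+ cells (59.4%, 40.6% to 76.3%) and 15 of 34 Cd55- cells (44.1%, 27.2% to 62.1%), or in 65.4% and 43.3% without the 10 wells. Prlr, the prolactin receptor, was read in all but 1 of the 66 cells and had a log2 ratio of -0.06 (plate B 0.37, plate C -0.24). Foxa1, a pioneer factor of oestrogen receptor binding, had a log2 ratio of 0.93 (plate B 0.26, plate C 1.22), which was 0.35 without luminal cell 36. Of the other ML genes fixed for naming, Cited1 (-0.32), Areg (-0.42), Stc2 (-0.76) and Ly6d (-0.24) had log2 ratios below 0, inside 2-fold. Ly6a, the surface protein Sca-1, was the ML marker past 2-fold on both plates (log2 2.09, plate B 1.47, plate C 2.29). It had 383 to 17932 CPM in the 6 fibroblast-marked wells, and without the 10 wells it had 561 and 275 CPM (log2 1.03, plate C 0.92).

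Rspo1 was the LP marker at least 2-fold higher on both plates, where 9.64% of all genes were, and few cells carried it on plate B. It encodes R-spondin 1, a secreted protein that amplifies Wnt signalling. It was detected in 13 of 32 Cd55+ cells (40.6%, 23.7% to 59.4%) and 5 of 34 Cd55- cells (14.7%, 4.95% to 31.1%), or in 2 of 9 and 1 of 10 on plate B and 11 of 23 and 4 of 24 on plate C. Its highest cells had 407 and 182 CPM, and the median cell of each group had none. On plate B luminal cell 3 (Cd55+) held 315 CPM and luminal cell 4 (Cd55-) 182 CPM. The only other compared cells with reads on that plate were the Cd55+ luminal cells 14 and 6, at 18.9 and 3.84 CPM. The plate B ratio thus rests mainly on luminal cell 3. The summed level was 56.4 CPM (54.4 to 58.5) and 6.77 CPM (6.05 to 7.55), a log2 ratio of 2.88 (plate B 1.50, plate C 3.50), and 2.99 without the 10 wells.

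The casein genes Csn1s1 and Csn2 were carried by more Cd55+ than Cd55- cells, while the ratios of Csn3 and Lalba depended on the 10 wells. Csn1s1, which encodes the alpha-S1 casein, was detected in 22 of 32 Cd55+ cells (68.8%, 50.0% to 83.9%) and 13 of 34 Cd55- cells (38.2%, 22.2% to 56.4%), or in 6 of 9 and 3 of 10 on plate B and 16 of 23 and 10 of 24 on plate C. Per cell it ran from 0 to 18369 CPM with a median of 2232 CPM in Cd55+ cells, and from 0 to 15317 CPM with a median of 1.93 CPM in Cd55- cells. In each cell it was either at most 17.6 CPM or at least 265 CPM: 21 Cd55+ and 11 Cd55- cells were in the upper range. Its summed level was 3550.4 and 1015 CPM (log2 1.81, plate B 3.30, plate C 1.73). Csn2, the beta-casein gene, was detected in 19 of 32 cells (59.4%, 40.6% to 76.3%) and 9 of 34 cells (26.5%, 12.9% to 44.4%), with medians of 315 and 1.80 CPM. Its log2 ratio was 1.18 (plate B 4.43, plate C 1.14), and without luminal cell 31 it was 0.61, under 2-fold. Both caseins were detected in 17 of 32 Cd55+ cells (53.1%, 34.7% to 70.9%) and in 9 of 34 Cd55- cells (26.5%, 12.9% to 44.4%). Outside the 10 wells it was 15 of 26 cells (57.7%) and 7 of 30 (23.3%).

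The 12 milk protein genes tested had a median log2 ratio of 1.34, and 0.82 without the 10 wells. Csn1s1, Csn2, Muc15 and Xdh were at least 2-fold higher on both plates in either case, that is 4 of 12 genes where 9.64% of all genes were. None of the 12 was lower with all cells, and Lalba and Spp1 were at least 2-fold lower on both plates without the 10 wells. Muc15, a mucin of the milk fat globule, was detected in 16 and 9 cells and had 350.1 and 61.7 CPM (log2 2.49, plate B 2.47, plate C 2.50). Xdh, the xanthine dehydrogenase of the same globule, was detected in 10 and 5 cells with 50.8 and 14.7 CPM (log2 1.72, plate B 3.25, plate C 1.48). Csn3, the kappa-casein gene, had a log2 ratio of 0.44 (plate B 1.13, plate C -0.20), and -0.63 without the wells, its highest level of 24333 CPM lying in luminal cell 24. Lalba, the alpha-lactalbumin gene, had a log2 ratio of -0.52 (plate B -0.03, plate C -0.87), and -2.16 without the wells.

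The study named 23 genes for its LP cluster II, drawn from the same total epithelial cells. Of these 7 were at least 2-fold higher on both plates and 1 lower, with a median log2 ratio of 0.43. Of all genes 9.64% were higher and 4.86% lower. Without the 10 wells the same 7 were higher and 4 were lower (Fcgbp, Clic6, Lalba and Spp1), with a median of -0.03. Plb1, a phospholipase, was detected in 29 of 32 and 24 of 34 cells with medians of 138 and 52.7 CPM (log2 1.45, plate B 1.51, plate C 1.42). Wfdc18, a small secreted protease inhibitor-like protein, had medians of 653 and 63.6 CPM and a log2 ratio of 1.10, which was 0.89 without luminal cell 31. Muc4, a membrane mucin, and Ano3, an anoctamin, had log2 ratios of 1.98 and 1.99. Fcgbp, a mucus protein, went the other way with 59.1 and 276 CPM (log2 -2.20, plate B -2.27, plate C -2.18), although more Cd55+ cells (14 of 32) than Cd55- cells (11 of 34) had a read.

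**Figure D5:**
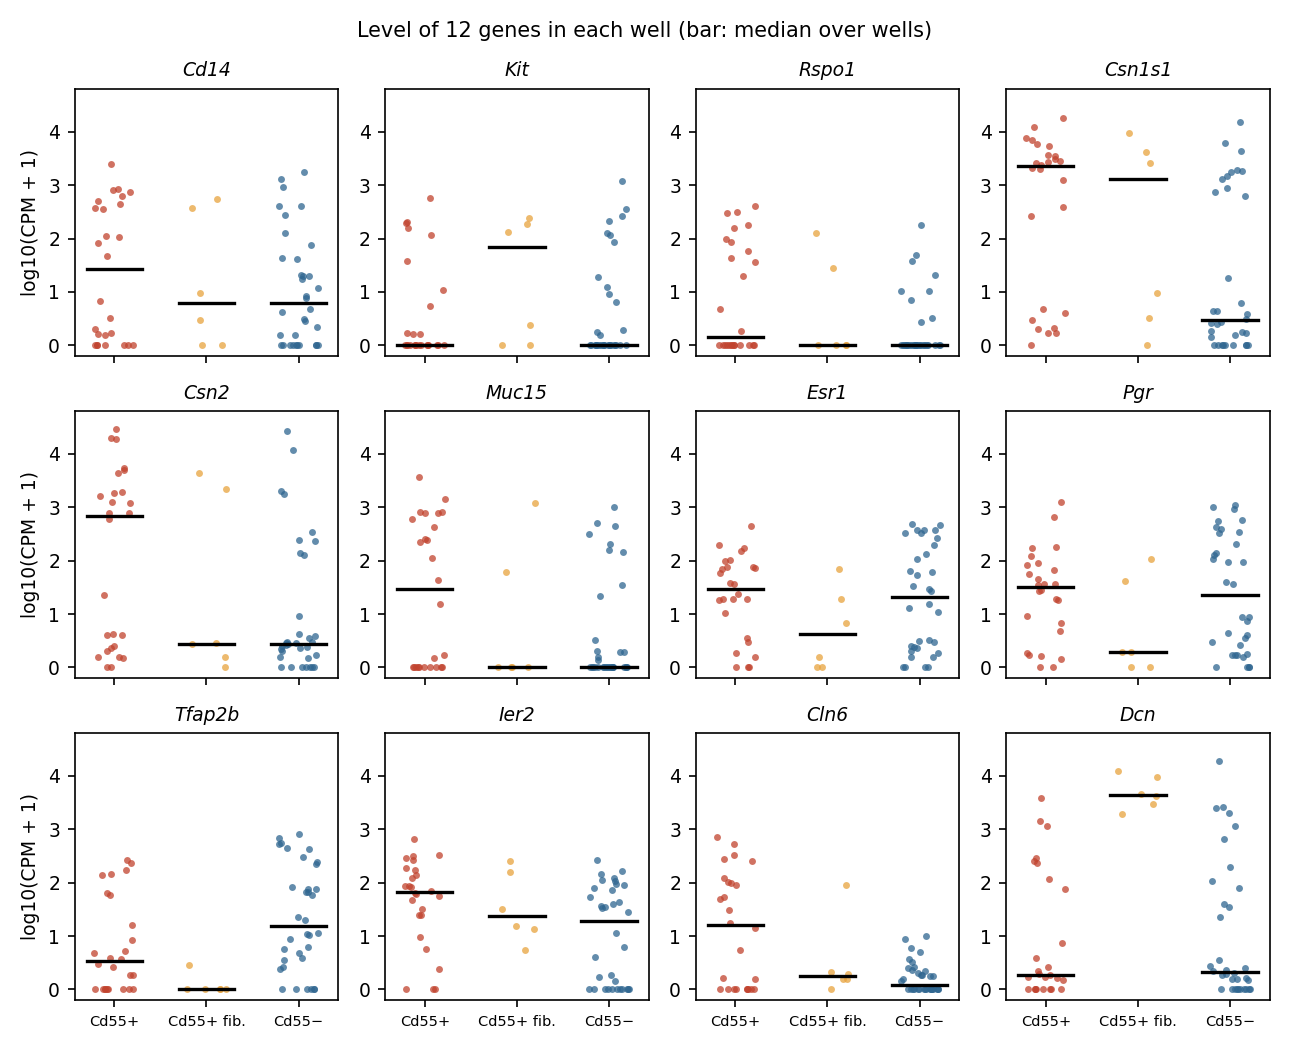
The level of 12 genes is drawn as log10 of CPM plus 1, with a point for each well: Cd55+ cells outside the 6 fibroblast-marked wells (red, 26 cells), these 6 wells (orange) and Cd55- cells (blue, 34 cells); bars are medians. Csn1s1 splits each group into wells at or below 17.6 CPM and wells at or above 265 CPM, 21 of 32 Cd55+ and 11 of 34 Cd55- wells being in the upper part, and Cd14, Kit, Esr1 and Pgr overlap throughout.

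On the lower side, 4.86% of all genes were past 2-fold on both plates, and the lists of ML genes and luminal transcription factors had 3 such genes each. In the study's ML cluster I, 3 of 30 tested genes were at least 2-fold lower on both plates and none higher, with a median log2 ratio of -0.36. Upk3a, a uroplakin, was detected in 8 of 32 Cd55+ and 16 of 34 Cd55- cells with 203 and 769.6 CPM (log2 -1.92, plate B -1.90, plate C -1.92). Fgb, the fibrinogen beta chain, was detected in 10 and 14 cells (log2 -2.16, plate B -1.32, plate C -2.77). Tspan1, a tetraspanin, was detected in 17 and 16 cells (log2 -1.43), and without luminal cell 89 its log2 ratio was -0.95.

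Tfap2b showed the widest gap in detection among the luminal transcription factors that passed 2-fold. This AP-2 family factor was detected in 9 of 32 Cd55+ cells (28.1%, 13.7% to 46.7%) and 23 of 34 Cd55- cells (67.6%, 49.5% to 82.6%), or in 4 of 9 and 7 of 10 on plate B and 5 of 23 and 16 of 24 on plate C. Per cell it ran from 0 to 262 CPM with a median of 1.26 CPM in Cd55+ cells and from 0 to 805 CPM with a median of 14.8 CPM in Cd55- cells. Summed levels were 34.5 CPM (33.0 to 36.2) and 146 CPM (143 to 149), a log2 ratio of -2.05 (plate B -1.89, plate C -2.17), and -1.67 without the 10 wells, of which the 6 Cd55+ ones had at most 1.85 CPM. Spdef, an ETS factor of secretory cells, had a read in 0 and 4 cells, and the homeobox gene Msx2 in 6 and 9 cells (log2 -2.80). Of the 22 factors tested, these 3 were at least 2-fold lower on both plates and none was higher.

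Among the other lower genes, Dsp, the desmosomal protein desmoplakin, had 156 and 671 CPM (log2 -2.10, plate B -2.06, plate C -2.10) and was detected in 20 and 26 cells. It was the only one of 16 keratin and junction genes past 2-fold on both plates, and that list's median log2 ratio was -0.08. Erbb2, the receptor tyrosine kinase HER2, had 10.2 and 42.2 CPM (log2 -1.95, plate B -1.86, plate C -1.94) and was detected in 6 and 13 cells. In the same list of 10 EGF family genes, Tgfa, a ligand of the EGF receptor, was higher (log2 3.27), with a read in 4 Cd55+ cells and 1 Cd55- cell.

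Immediate early genes, which respond within minutes to handling as well as to growth signals, had a median log2 ratio of 0.30 over 17 genes, with 1.20 on plate B and 0.13 on plate C. Ier2 was detected in 26 of 32 Cd55+ cells (81.2%, 63.6% to 92.8%) and 18 of 34 Cd55- cells (52.9%, 35.1% to 70.2%), with medians of 61.4 and 18.6 CPM and a log2 ratio of 1.50 (plate B 1.82, plate C 1.40). Nr4a1, an orphan nuclear receptor, was detected in 18 and 19 cells, and its log2 ratio of 1.75 came from higher levels in some of them, up to 1608 CPM against 329 CPM. Both were past 2-fold on each plate, with and without the 10 wells, that is 2 of 17 genes where 9.64% of all genes were higher. Myc, the growth regulator, was past 2-fold lower on both plates only without the wells (log2 -3.15), and luminal cell 9 held 6062 CPM of it.

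In the remaining lists few genes passed 2-fold on both plates. Cell cycle genes had a median log2 ratio of 0.11, with -1.25 on plate B and 0.80 on plate C. Mcm3, a replication licensing factor, was past 2-fold on both plates (log2 1.06), but without luminal cell 36 its log2 ratio was -0.42. Aurka, a mitotic kinase, had a log2 ratio of -3.28 with a read in 1 Cd55+ and 5 Cd55- cells. The medians were 0.10 for 15 surface proteins used in sorting, -0.28 for the EGF family, close to 0 for 15 innate defence genes (plate B 1.19, plate C -0.31) and 1.07 for 4 MHC class II genes, of which H2-DMb1 was detected in 11 and 8 cells and the other 3 in no more than 4 cells of a group. Ccl2, a chemokine, was the innate gene past 2-fold (log2 8.20), with up to 10445 CPM in the 6 fibroblast-marked wells and up to 43.4 CPM in other Cd55+ cells. Endothelial markers had a median of -0.41, and 0.00 without the 10 wells. Basal markers had -2.57, and 0.79 without the wells, and luminal cell 63 held 13 of the 18. Tpm2, a tropomyosin, was the basal marker past 2-fold lower (log2 -3.09), detected in 0 and 5 cells.

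Beyond Cd55 itself, the complement genes gave mixed values. Of 14 tested, 4 were at least 2-fold higher on both plates and 1 lower, with a median log2 ratio of 0.98. These 4 include Cd55b (log2 2.70, plate B 2.42, plate C 2.81, and 2.59 without the 10 wells). Its reads may be reads of Cd55, the gene that set the groups, so its place in the count is no separate result. Of all genes 9.64% were higher and 4.86% lower. Without the 10 wells 2 complement genes were higher and 1 lower, with a median of 0.02. C3, the central component, was detected in 20 of 32 and 10 of 34 cells with medians of 65.1 and 1.16 CPM (log2 1.91, plate B 1.47, plate C 2.06). In the 6 fibroblast-marked wells C3 stood at 355 to 3723 CPM, and without the 10 wells its log2 ratio was 0.64. Serping1, the C1 inhibitor, stood at 31.8 to 2648 CPM in the 6 wells and at no more than 0.962 CPM in the other Cd55+ cells. C1ra, a protease of the first component, had a log2 ratio of 3.76 (plate B 8.13, plate C 1.85) and of 6.71 without the wells, and luminal cell 8 held most of its reads: without that cell it was 1.97. C2 was lower (log2 -2.74) with a read in 1 Cd55+ and 5 Cd55- cells. The other membrane regulators did not follow Cd55. Cd59a, which blocks the terminal pore, was detected in 15 cells of each group (log2 0.43, plate B 2.46, plate C -0.20), and Cr1l, the rodent convertase regulator Crry, in 20 and 16 (log2 0.64). Clu, the secreted regulator clusterin, was nearly equal at 2174 and 2274 CPM (log2 -0.06).

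By size alone, 382 genes were higher and 135 lower among those with at least 20 CPM and a read in 25% of the cells of the higher group, past 2-fold on both plates and without their top cell. Of the 12 highest, Efemp1, a fibulin of the matrix, had 424 CPM (418 to 429.6) and 1.07 CPM (0.798 to 1.41), a log2 ratio of 7.68 that was 0.25 without the 10 wells. Igfbp6, which binds insulin-like growth factor 2, had a log2 ratio of 7.07, and -0.11 without the wells. Qpct (7.32), Scara5 (5.44) and Sema3c (4.85) were each read in 5 or 6 of the 6 wells and kept 4.39, 2.17 and 4.41 without the 10 wells, Qpct and Sema3c then at -0.29 and -0.15 on plate B. The other 7, Cytip, Akr1e1, Utp14b, Cln6, Cfap410, Srgap3 and Slc18a2, had log2 ratios of 4.36 to 5.40 and stayed past 2-fold on both plates without the wells.

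Cln6 was the gene of these 12 detected in the most Cd55+ cells. It encodes a membrane protein of the endoplasmic reticulum whose loss causes a neuronal ceroid lipofuscinosis. It was detected in 17 of 32 Cd55+ cells (53.1%, 34.7% to 70.9%) and 3 of 34 Cd55- cells (8.82%, 1.86% to 23.7%), or in 4 of 9 and 2 of 10 on plate B and 13 of 23 and 1 of 24 on plate C. Per cell it reached 710.1 CPM in Cd55+ cells and 9.11 CPM in Cd55- cells, with medians of 2.81 and 0.216 CPM. Its log2 ratio was 5.02 (plate B 3.86, plate C 5.58), and 5.23 without the 10 wells. Srgap3 was detected in 9 of 32 cells and in 0 of 34, which allows a share of up to 10.3%.

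The 12 lowest genes had no connective tissue genes among them, which follows largely from the 6 fibroblast-marked wells all being Cd55+. Without the 10 wells 11 of the 12 stayed past 2-fold on both plates. They had been picked for passing it with all cells, and only 4 of 34 Cd55- cells were taken out. Their staying is thus no check of them. Angptl4, an inhibitor of lipoprotein lipase, was detected in 4 of 32 Cd55+ cells (12.5%, 3.51% to 29.0%) and 17 of 34 Cd55- cells (50.0%, 32.4% to 67.6%), with 13.7 CPM (12.7 to 14.7) and 308 CPM (303 to 313). Its log2 ratio was -4.39 (plate B -6.69, plate C -4.21), and its highest cells had 361 and 3219.9 CPM. Ccne2, the G1 cyclin E2, was detected in 3 and 11 cells with 0.800 and 84.0 CPM (log2 -5.56, plate B -7.06, plate C -4.07). Vti1a, a vesicle SNARE, was detected in 5 and 14 cells (log2 -4.62). AW549877, Ptpn23, Zfp62, Fry, Ccdc66, Mad2l1, Fbxo42, Ehd2 and Terf1 had log2 ratios of -5.06 to -3.72. Single cells weighed on some of them: without luminal cell 74 the log2 ratio of Zfp62 was -2.23, and without luminal cell 89 that of Mad2l1 was -1.53 and that of Fry -2.73.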

How the data were processed

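Single luminal cells of the adult mammary gland were profiled on the Fluidigm C1 with Nextera XT libraries. The authors aligned the reads with Subread to mm10, assigned read pairs to genes with featureCounts and the built-in RefSeq annotation, and deposited raw counts per gene and cell. Strand and multi-mapping settings are not given in the sources used here, which bears on paralogues and on genes that overlap. The combined series table was not used here.

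Of 27179 identifiers 25275 matched a symbol in RefSeq GRCm38.p6, the assembly of mm10; the other 1904 held 1.94% of counts and were left out. The 15 mitochondrial and 125 ribosomal protein genes were removed, and the cell thresholds were applied to the rest. Groups follow the rule on Cd55. The cells, gene lists and naming rules were chosen with earlier results of these data known. Named were the 12 genes per direction by size (as described with them), 17 fixed markers, and up to 4 genes per list past 2-fold on both plates. Cells are numbered as in the labels, and the 5-marker count of LP and ML cells was chosen after the data were seen.

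Counts were summed per group and scaled to CPM; log2 ratios had 1 CPM added. Fold changes of low genes are understated on this scale. Detection used each cell thinned to 100000 reads without replacement. A well was said to carry markers of another cell type when 50% or more of the fibroblast, endothelial, immune or basal list had a read. Sums have exact Poisson and shares exact Clopper-Pearson intervals (95%); a sum of 0 was set at 3 counts over the group. No compared pair of cells looked like 1 library (smallest chi-square per gene 59.0 over 2145 pairs). The steps were tested on simulated data. Python 3.11.15, numpy 2.4.6, pandas 2.3.3, scipy 1.17.1, R 4.3.3 and edgeR 4.0.16 (TMM factors, an alternative) were used. Other alternatives covered cell and gene filters, gene removal, added CPM, cell weights, Cd55 thresholds, plates and detection depth.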

Additional observations from a re-analysis of the deposited data

Results flagged for a closer look

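Groups of 9 or 10 cells (Cd55+ on plate B, Cd55- on plate B, and the cells between the groups) were checked for a cell far from the others in 7 measures each, and 5 of the 21 checks gave one, 2 of them for the same cell. A cell counted as far when its gap to the nearest, divided by the group's range, passed Dixon's 95% critical value. For normally distributed values chance passes it in about 1 of 20 groups. Most of the measures are small counts of markers, to which that rate need not apply. Luminal cell 24 held 10 fibroblast markers where the next Cd55+ cell on plate B held 2. Luminal cell 9 held 3 ML markers, the next lowest Cd55- cell on plate B holding 8. Luminal cell 23 held 7 basal markers, the next of that group holding 1. Among the cells between the groups, luminal cell 86 had 322700 reads, the next lowest having 1102101, and it held 3 endothelial markers where the next held 1. Outside the compared cells, Cd55 reached 10 CPM in 3 of 72 basal cells past their own thresholds (4.17%, 0.868% to 11.7%), with at most 14.3 CPM, and in 1 of 14 luminal cells below the thresholds, at 103 CPM.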

How the results depend on the processing

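No paired analysis was possible because each cell number belongs to 1 cell of 1 group and no mouse is named for a cell. The counts of genes past 2-fold on both plates, 1221 higher and 616 lower, stayed within 1.5 times under all alternatives run except 10 CPM added, which gave 521 and 264. With TMM or median-of-ratios factors the median of all genes was 0.00 in place of 0.12, and 60.1% and 59.6% of called genes were higher in place of 66.5%. The median of the LP list, 0.09, was 0.37 with Cd55+ cells taken at 1 read or more and -0.54 with groups set at 100000 reads. The median of the ML list, -0.37, stayed negative: -0.33 with cells of at least 1000000 reads, -0.24 with mitochondrial and ribosomal genes kept, -0.52 with TMM and -0.52 with median-of-ratios factors, -0.34 with thinned cells, -0.27 with Cd55+ at 1 read or more, -0.32 at 50 CPM or more, -0.26 with groups set at 100000 reads, -0.33 on plate B and -0.34 without the 10 wells. Cd14 at full depth was detected in 71.9% of Cd55+ and 70.6% of Cd55- cells, and at 5 reads or more in 46.9% of Cd55+ and 26.5% of Cd55- cells. Of 1291 values of 76 named genes under alternatives, 553 stayed within the counting interval of the reported value, 729 moved beyond it and 9 turned sign for a gene past 2-fold on both plates. Mcm3 was -0.23 with thinned cells and -0.42 without its top cell. Without the 10 wells Igfbp6 was -0.11, Axl -2.25, Fbn1 -0.14, Fstl1 -0.22, Dpt -0.11, Mfap5 -0.078 and Fn1 -0.021. A gene present in few cells cannot be told from an absent one at 100000 reads.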
